A study of Homo sapiens with 47 samples.

Results

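HAP1 is an adherent, near-haploid human line that descends from a chronic myeloid leukemia. The study mutated NUP58, a gene for a central-channel protein of the nuclear pore, in these cells with Cas9, and carried along a control line, EV, that received the Cas9 vector with no guide RNA. The comparison described here is that control line against the wild-type cells (WT), which were not transfected. It holds 8 of the 47 bulk RNA libraries of the series, 4 titled EV and 4 titled WT, chosen by title and genotype label alone. It asks what differs between a line that was transfected and one that was not when no gene is targeted. The other 24 HAP1 libraries come from the 6 NUP58 mutant clones C1 to C6. WT cells carry the wild-type genotype label, and the EV label says that Cas9 was transfected without a guide. All lines share the HAP1 background, the dish format and harvest at about the same confluence. Cells in these experiments were transfected with a lipid reagent and fluorescent cells were sorted singly into wells, but the sources used here do not state whether the sequenced EV line grew from 1 cell. EV is therefore 1 line against 1 line, and the 4 replicates measure the spread within each.

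Cells of a culture are not identical: some genes are on in one cell and silent in the next, and such states can be inherited through many divisions. Cells answer DNA breaks through p53, which raises genes of cell cycle arrest, and answer DNA in the cytosol through cGAS and STING, which raise interferon genes. A control line is grown to tell changes of transfection and culture from those of the edit. EV received no guide, so Cas9 was not directed to a target in it. It is therefore no control for the answer to a guided cut.

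Expression was deposited as FPKM, which scales fragments by transcript length and by the mapped total. FPKM does not correct for differences in make-up between libraries, and its sum was 632472 to 647747 in EV and 627676 to 644061 in WT. Expression was analysed as log2(FPKM + 1), a scale on which weakly expressed genes move less than their FPKM does. Differences are given as EV minus WT, with p-values from limma's moderated test. Tests covered the 13153 genes whose FPKM averaged 1 or more across EV and WT. A gene is said to be called when its unadjusted p was under 0.01 and its fold change on the log2(FPKM + 1) scale over 2. These are the numeric thresholds of the study. A gene is said to have changed when its p adjusted over all genes by the Benjamini-Hochberg method was under 0.05. The deposited table holds no fragment counts, so the depth behind each value is unknown. The depth relative to WT replicate 1 was estimated at 0.792 to 0.898 in EV and 0.806 to 1.0 in WT. It is the median ratio of FPKM over genes above 0 and under 0.15 FPKM in both libraries. Such genes may hold more than 1 fragment, so the estimate is rough. Between 18570 and 18962 genes were above 0 in each library. WT replicate 2 stood apart: 462 genes in it lay over 2-fold from the median of the 8 libraries, against 72 to 218 in each of the others. Counts of calls, and most list medians that move with it, are given with and without it below.

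EV differed from WT at few genes. Of the 13153 genes, 23 were called, 13 higher and 10 lower in EV, which is 0.175% of those tested. Without WT replicate 2 the calls were 15 higher and 10 lower. At an adjusted p under 0.05 in limma, 5 genes had changed (0.038%). STXBP2 and BMP7 rose in EV. TAL1, TCEAL9 and PDGFRA fell. On the log2(FPKM + 1) scale most of the transcriptome was close to WT. There 88.6% of the genes were within 1.2-fold, 46 genes (0.35%) lay beyond 2-fold, and the median difference over all genes was 0.001. More genes would lie beyond 2-fold by the ratio of FPKM, since weakly expressed genes move less on this scale. EV and WT libraries with the same replicate number varied together, and so did numbers 1 with 2 and, more weakly, 3 with 4. A fit with the number as a block called 28 genes, all 23 among them. It added GLMP, which was already called and lower in EV, to the changed genes, with an adjusted p of 0.0316 in limma against 0.0652 without the block. In bulk RNA, fewer cells that express a gene and less of its RNA in each cell cannot be told apart.

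The promoter sequences of 5 of the 6 genes that changed in either fit are shown because these genes carry the comparison and because their density of CG dinucleotides, the sites of DNA methylation, differs widely. They are the 250 bases before a transcription start in RefSeq (GRCh38.p14), 5′ to 3′ on the strand of the gene, with every CG in capitals. TAL1 is taken at chr1:47232336-47232585 on the minus strand, 110 bases from the start of its canonical transcript, TCEAL9 at chrX:103356256-103356505 on the plus strand, PDGFRA at chr4:54229043-54229292 on the plus strand, GLMP at chr1:156295680-156295929 on the minus strand and STXBP2 at chr19:7636860-7637109 on the plus strand. BMP7 was not matched.
TAL1: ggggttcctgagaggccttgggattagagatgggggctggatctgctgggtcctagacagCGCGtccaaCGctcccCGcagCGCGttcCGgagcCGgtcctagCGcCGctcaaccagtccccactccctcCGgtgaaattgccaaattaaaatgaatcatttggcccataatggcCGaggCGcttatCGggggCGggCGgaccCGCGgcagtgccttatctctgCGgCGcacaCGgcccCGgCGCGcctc
TCEAL9: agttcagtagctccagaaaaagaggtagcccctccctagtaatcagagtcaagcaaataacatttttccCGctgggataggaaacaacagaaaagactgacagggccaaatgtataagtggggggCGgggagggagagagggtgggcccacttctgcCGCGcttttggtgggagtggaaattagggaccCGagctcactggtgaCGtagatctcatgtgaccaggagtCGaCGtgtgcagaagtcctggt
PDGFRA: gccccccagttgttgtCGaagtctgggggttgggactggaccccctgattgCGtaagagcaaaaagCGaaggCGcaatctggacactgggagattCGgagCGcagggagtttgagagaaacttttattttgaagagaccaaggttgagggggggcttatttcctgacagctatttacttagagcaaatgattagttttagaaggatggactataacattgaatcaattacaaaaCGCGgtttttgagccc
GLMP: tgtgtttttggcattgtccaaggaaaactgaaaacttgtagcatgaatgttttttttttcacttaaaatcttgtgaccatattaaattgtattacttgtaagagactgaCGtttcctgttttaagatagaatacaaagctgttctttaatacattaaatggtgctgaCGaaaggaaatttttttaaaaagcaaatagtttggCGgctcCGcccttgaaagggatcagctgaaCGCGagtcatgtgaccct
STXBP2: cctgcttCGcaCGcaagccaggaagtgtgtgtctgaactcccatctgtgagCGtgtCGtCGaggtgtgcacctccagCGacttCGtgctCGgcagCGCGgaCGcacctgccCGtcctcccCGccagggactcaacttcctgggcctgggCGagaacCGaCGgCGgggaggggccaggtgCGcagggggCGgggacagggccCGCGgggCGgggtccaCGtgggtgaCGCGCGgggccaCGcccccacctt

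The motif searched was CG, which reads the same on both strands. TAL1 has 24 and STXBP2 has 27 in this window, and 23.7% and 17.7% of the 35116 RefSeq promoters hold at least as many. TCEAL9 and PDGFRA have 8 each, a number reached by 56.3% of promoters, and GLMP has 6, reached by 61.9%. The median over all promoters was 11. Dense CG was thus found at a gene that fell and at a gene that rose. Methylation was not measured in these data.

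TAL1 (ENSG00000162367.11, minus strand, chr1:47216290-47232225 of GRCh38) codes for a basic helix-loop-helix transcription factor that directs the formation of blood cells. Its FPKM was 21.1, 19.5, 14.1 and 17.8 in WT replicates 1 to 4 and 1.63, 1.12, 1.12 and 1.17 in EV. All EV libraries lay far below all WT libraries, and EV kept a low but measurable level in each. The means were 18.1 ± 3.00 and 1.26 ± 0.248 (SD, n = 4 each), so that WT was 14.4-fold higher. The difference was -3.07 on the log2(FPKM + 1) scale (standard error 0.154, adjusted p = 4.31e-05 from limma), the largest fall among the genes tested. A two-sided exact test that permuted the 8 library labels gave p = 0.0286 for this gene and for each of the 5 described next. This is the smallest that the 70 arrangements allow. Any gene whose groups do not overlap reaches it, as 250 of all genes tested did (1.9%). The genes described here were picked from the same libraries, so the test adds no separate support. It also did not keep the same-numbered pairs together.

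TCEAL9 (ENSG00000185222.7, plus strand, chrX:103356489-103358462) belongs to a family of small proteins on the X chromosome that resemble the transcription elongation factor TFIIS. WT held 6.32, 5.25, 5.61 and 6.01 FPKM, and EV 0.201, 0.260, 0.123 and 0.279. The gene was thus near 0 in every EV library and even across the WT libraries. The WT mean was 26.9-fold that of EV, the largest ratio among the genes called, with a difference of -2.48 on the log2(FPKM + 1) scale (standard error 0.149, adjusted p = 0.000117 from limma).

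PDGFRA (ENSG00000134853.11, plus strand, chr4:54229280-54298245) codes for the alpha receptor of platelet-derived growth factor, a receptor tyrosine kinase. Its FPKM was 6.89, 8.04, 3.85 and 5.66 in WT and 0.595, 0.717, 0.505 and 0.546 in EV. All EV libraries lay far below all WT libraries. The difference was -2.12 (standard error 0.205, adjusted p = 0.00366 from limma). In the blocked fit its adjusted p was 0.0067, and 0.0901 and 0.0568 when the pairs numbered 1 and 4 were left out, a choice made after seeing the data.

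GLMP (ENSG00000198715.11, minus strand, chr1:156290089-156295689) codes for a glycosylated protein of the lysosomal membrane. WT held 3.93, 5.02, 2.38 and 3.38 FPKM and EV 0.594, 0.910, 0.329 and 0.438. In both groups replicate 2 was highest and replicate 3 lowest, and the difference within the 4 same-numbered pairs ran only from -1.66 to -1.35 on the log2 scale. The overall difference was -1.56 (standard error 0.217), which passed the adjusted threshold with the block and not without it. TMEM79 overlaps GLMP and was not called, at a difference of -0.30. The sources used here do not say whether fragments were counted by strand, so that reads in the overlap may have been assigned to either gene.

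STXBP2 (ENSG00000076944.15, plus strand, chr19:7636772-7647873) codes for Munc18-2, which binds syntaxins in the release of granules, as in cytotoxic lymphocytes and platelets. Its FPKM was 3.61, 5.60, 2.58 and 3.59 in WT and 23.5, 26.3, 19.4 and 25 in EV. Every EV library was well above every WT library, and replicate 2 was highest and replicate 3 lowest in both groups. The mean of EV, 23.6 ± 3.00, was 6.13-fold that of WT, 3.84 ± 1.26 (SD, n = 4 each). The difference was 2.37 (standard error 0.186, adjusted p = 0.000945 from limma), the largest rise among the genes that changed.

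BMP7 (ENSG00000101144.12, minus strand, chr20:57168753-57266641) codes for a secreted bone morphogenetic protein. WT held 1.88, 2.14, 1.28 and 0.922 FPKM, and EV 13.5, 13.5, 8.15 and 9.55. Replicates 1 and 2 were the higher ones in both groups. The means differed 7.18-fold, and the difference of 2.25 (standard error 0.214, adjusted p = 0.00366 from limma) varied between 2.01 and 2.46 over the same-numbered pairs.

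**Figure D1:**
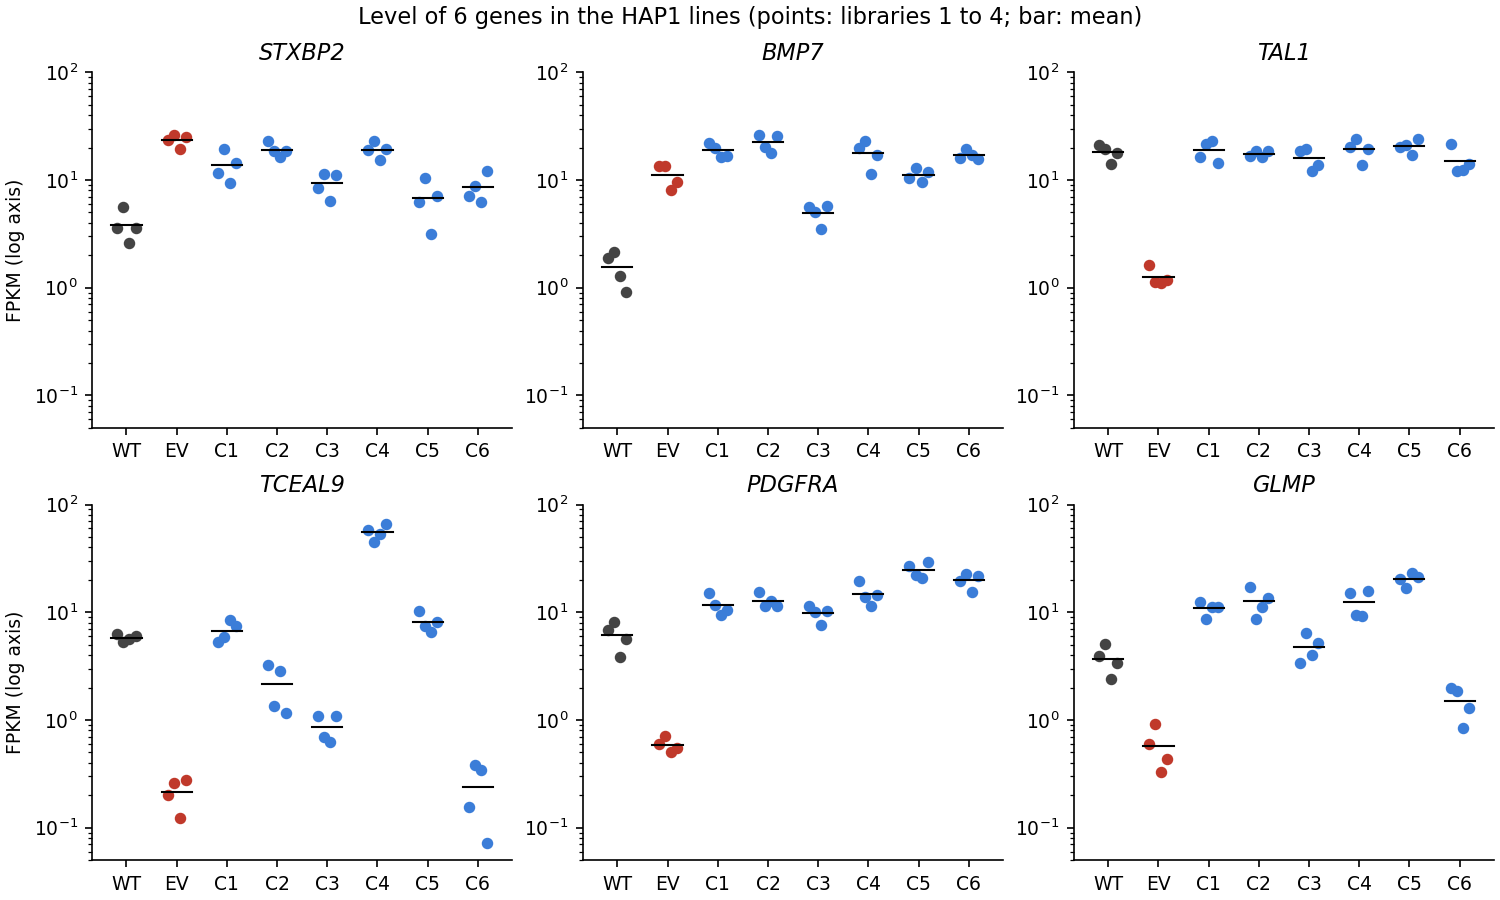
FPKM on a log axis in WT, EV and the 6 NUP58 clones for the 6 genes that changed in either fit, 1 panel per gene, with 1 point per library and a bar at the mean of 4. EV stands alone at the bottom for TAL1 and PDGFRA, shares the bottom with C6 for TCEAL9, has the lowest mean for GLMP, has the highest mean for STXBP2 and lies within the range of the clones for BMP7.

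The 6 genes took different levels in the mutant clones. These were made from WT cells by transfection with guides against NUP58 and sorting of single cells, and were picked as the smallest viable clones. The sources used here do not say whether the sequenced EV line was sorted or picked in that way. Each clone, like EV, is compared with the same 4 WT libraries, so the values are given side by side without a test of likeness. TAL1 had mean FPKM of 15.0 to 20.6 in the 6 clones, with single libraries from 12.1 to 23.9, next to 18.1 in WT and 1.26 in EV. All 24 clone libraries lay above the highest EV library. PDGFRA also lay above EV in all 24, at means of 9.84 to 24.8, and in 23 of them above the highest WT library. The low level of these genes was thus seen in EV and in none of the clones.

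TCEAL9 spread over the widest range, with means of 6.75, 2.15 and 0.869 in C1 to C3 and of 55.7, 8.11 and 0.237 in C4 to C6. C6 was as low as EV, at 0.0714 to 0.383 FPKM in its libraries, whereas C4 was far above WT. GLMP was 10.9, 12.6, 4.76, 12.4 and 20.3 in C1 to C5 and 1.49 in C6, and the lowest clone library, 0.842, was under the highest EV library, 0.910. For both genes the sets of values therefore differ from line to line, and EV lies at or near the low end.

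STXBP2 was 13.7, 19.1, 9.36, 19.1, 6.78 and 8.57 in C1 to C6. Of the 24 clone libraries, 23 were above the highest WT library, 5.60, and none was above the highest EV library, 26.3. BMP7 had means of 18.8, 22.4, 4.96, 17.9, 11.2 and 17, and all 24 libraries were above the highest WT library, 2.14, with 15 of them above the highest EV library. The WT level of both genes was thus the low one among the HAP1 lines, apart from 1 library for STXBP2.

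The remaining 17 called genes did not pass the adjusted threshold. They were mostly weakly expressed: in 13 of all 23 called genes both means were under 5 FPKM, and in 6 either mean reached 10. Among those higher in EV, ZNF22, a zinc finger gene, had 13, 15.3, 14.4 and 12.5 FPKM in EV and 5.55, 3.16, 4.78 and 6.73 in WT (difference 1.32, standard error 0.184, adjusted p = 0.0652 from limma). HOOK1, whose product links cargo to microtubules, had 3.29, 3.63, 3.00 and 3.54 in EV and 0.931, 1.16, 1.33 and 0.701 in WT (difference 1.11, standard error 0.163, adjusted p = 0.0873 from limma). The groups did not overlap for these genes. WT varied more in proportion to its level than EV.

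PYCARD codes for ASC, the adaptor of inflammasomes. It had 10.7, 13.1, 6.37 and 7.30 FPKM in EV and 4.83, 5.96, 2.96 and 1.92 in WT. Here the replicate number set much of the level, with numbers 1 and 2 high and 3 and 4 low in each group. The difference of 1.11 had an adjusted p of 1.0 from limma without the block and of 0.0892 with it. NPW, the gene of the neuropeptide W precursor, had 12.0, 10.1, 26.4 and 20.5 in EV against 2.81, 7.29, 7.06 and 6.53, a difference of 1.37. GLYATL2, an acyltransferase gene, had 8.60, 8.72, 4.08 and 5.76 in EV and 2.38, 0.575, 1.48 and 3.53 in WT, a difference of 1.44.

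The other genes called higher were FES, a tyrosine kinase gene (EV mean 2.00, WT 0.275 FPKM), TRO, the gene of trophinin (1.91 and 0.283), FRMD4A (4.78 and 1.76), the ephrin receptor gene EPHA10 (1.82 and 0.322), KIAA1324L, now ELAPOR2 (2.27 and 0.579), and a noncoding gene without a symbol in GENCODE, ENSG00000272764. Their differences ran from 1.05 to 1.22. ENSG00000272764 lies within GDI2 on chromosome 10 and was listed at 0 in WT replicates 2, 3 and 4, at 0.991 in WT replicate 1 and at 1.06 to 3.71 in EV, so its call rests on few fragments. Leaving out WT replicate 2, 3 or 4 or EV replicate 2 or 4 ended its call or took it under the filter.

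Among the genes lower in EV, BMP2, a second bone morphogenetic protein, had 1.90, 4.66, 2.08 and 1.14 FPKM in WT and 0.275, 0.171, 0.476 and 0.175 in EV. The difference was -1.35 (standard error 0.287, adjusted p = 0.595 from limma). ANXA1, annexin A1, a calcium-dependent membrane binding protein, had 16.5, 9.47, 9.60 and 7.60 in WT and 3.42, 6.00, 4.10 and 3.13 in EV, a difference of -1.17. WT replicate 1 was the highest by far, and without it the difference was -0.96, under the fold threshold. SOX18, a transcription factor gene of the vessel wall, had 3.65, 3.84, 3.53 and 4.31 in WT and 1.53, 1.4, 1.79 and 0.985 in EV, a difference of -1.0 that stood at the fold threshold.

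PCDH20, a protocadherin gene, had WT and EV means of 2.00 and 0.450 FPKM, GALNT14, a glycosyltransferase gene, 3.70 and 1.21, and HMSD 1.93 and 0.458. HMSD was the only called gene whose groups overlapped, with 1.34 FPKM in EV replicate 2 against 1.11 in WT replicate 3, and it was listed at 0 in EV replicate 3. The groups did not overlap for 22 of the 23 called genes, as for 250 of all genes tested (1.9%). All 23 called genes differed in the same direction in all 4 same-numbered pairs. For the 22 this follows from the lack of overlap and is no further support. When each library was left out in turn, 10 of the 23 kept the call throughout and 13 lost it, or fell under the filter, at least once. EV replicate 1 decided EPHA10 and KIAA1324L, EV replicate 3 PCDH20 and WT replicate 2 BMP2. FES and TRO were lost without EV replicate 1 or 2, GALNT14 without replicate 1 of either group, FRMD4A without EV replicate 1 or WT replicate 4, SOX18 without replicate 4 of either group, PYCARD without EV replicate 1 or 2 or WT replicate 3 or 4, and HMSD without any library but EV replicate 2 or WT replicate 3.

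**Figure D2:**
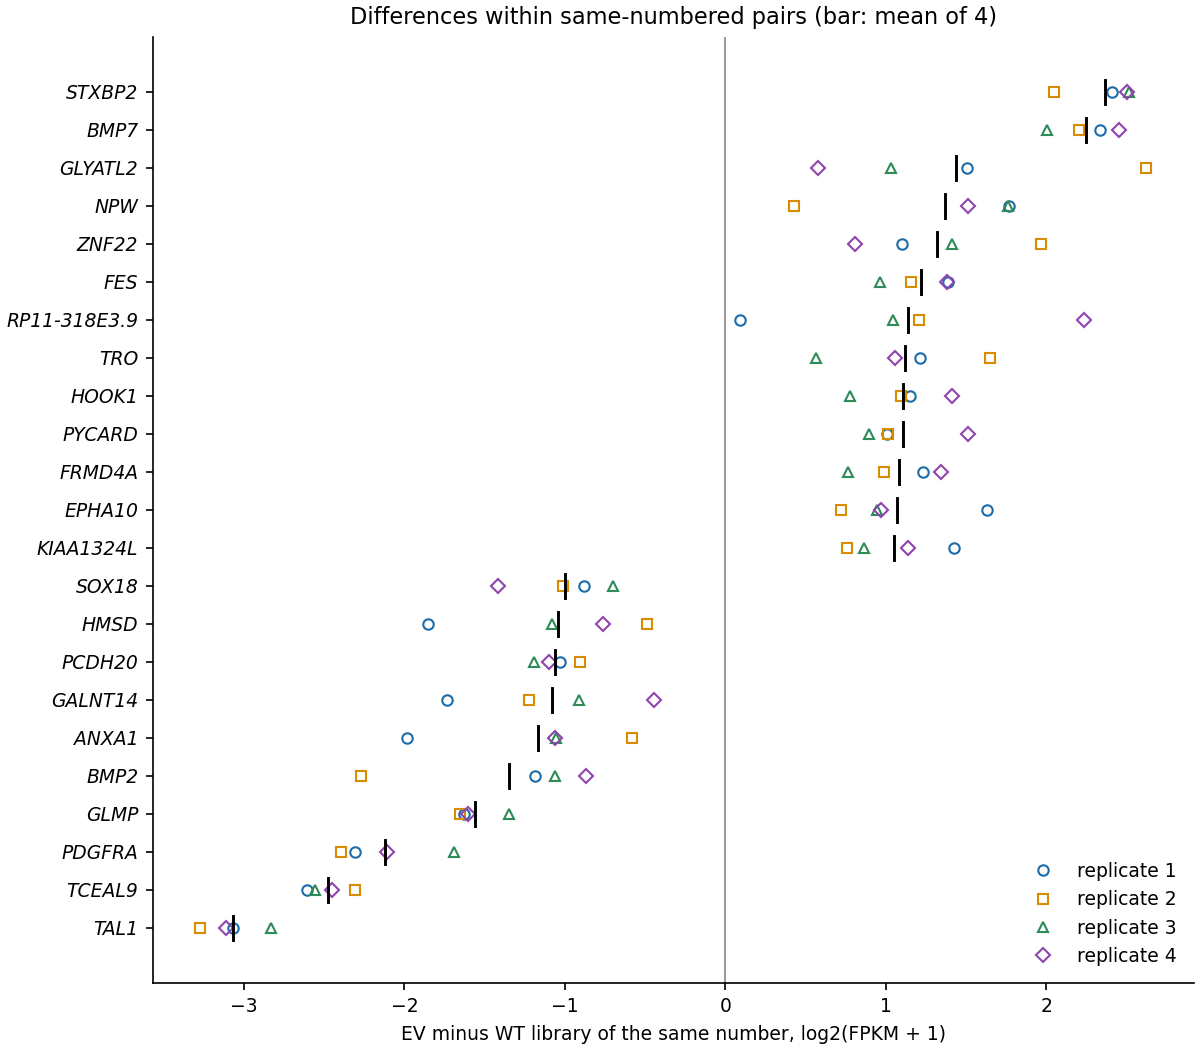
For each of the 23 called genes, the difference in log2(FPKM + 1) between the EV and the WT library of the same number is shown on the x axis, with 1 symbol per number and a bar at the mean of the 4. All symbols lie on one side of 0 for every gene, as they must for the 22 genes whose groups do not overlap. The symbols of TAL1, TCEAL9, GLMP, STXBP2 and BMP7 are close together, and those of GLYATL2 and of ENSG00000272764, shown under its clone name, are spread widely.

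The blocked fit called 5 genes more. IGFBP5, which codes for a binding protein of insulin-like growth factors, had 12.0, 20.3, 6.51 and 33.1 FPKM in EV and 4.67, 2.52, 1.70 and 13.3 in WT. The groups overlapped, but each EV library exceeded the WT library of its number by 1.2 to 2.59 in log2(FPKM + 1), with an adjusted p of 0.152 from limma with the block. GUCA1A, C5orf38 and the noncoding gene RP1-120G22.11 were also called higher, with mean differences of 1.22, 1.04 and 1.00, and the noncoding LINC00152 was called lower at -1.16. None passed the adjusted threshold. RP1-120G22.11 lies within RPL22, which had 309 FPKM in EV and 302 in WT, and overlaps RNF207 on the other strand, and reads of these genes may not have been told apart.

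Within 500 kb of the 6 changed genes, 67 tested genes had differences between -0.54 and 0.37 and none was called or passed the adjusted threshold. The lowest was the noncoding gene LINC00630, upstream of TCEAL9, with means of 4.43 FPKM in EV and 7.04 in WT and thus lower in EV like TCEAL9 (adjusted p = 1.0 from limma). Next to TAL1, STIL was at -0.07 and CMPK1 at -0.10. Next to PDGFRA, CHIC2 was at -0.06 and the receptor tyrosine kinase gene KIT, 359 kb away, at 0.02. BEX3, 18 kb from TCEAL9, was at 0.06 with means of 202 FPKM in EV and 194 in WT. PET100 and XAB2, within 7 kb of STXBP2, were at 0.08 and -0.04. RAE1, the nearest tested neighbour of BMP7, was at 0.04. TMEM79, the gene that overlaps GLMP, was lower in EV as GLMP was.

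A near-haploid line can gain or lose whole chromosomes. The median difference of the genes of a chromosome lay between -0.014 and 0.027 over 23 chromosomes, and within same-numbered pairs between -0.064 and 0.069. Of 12495 windows of 25 neighbouring tested genes, the lowest median was -0.139, on chromosome 7 from SYPL1 to CAV1, and the highest 0.127, on chromosome 16. The 23 called genes lay on 14 chromosomes.

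NUP58, the gene targeted in the clones, had 35.3, 37.7, 45.0 and 43.2 FPKM in EV and 34.3, 34.7, 50.4 and 45.8 in WT. The groups overlapped, with a difference of -0.02 (standard error 0.146), and the difference was above 0 when EV replicate 1 or 2 or WT replicate 3 or 4 was left out (0.01 to 0.08). The 31 nucleoporin genes, all of them tested, had a median difference of 0.02, with 19 above and 12 below 0, and ran from NUP43 at -0.17 to NUP88 at 0.31. Without WT replicate 2 their median was -0.02. The 24 tested karyopherin genes, the importins and exportins that carry cargo through the pore, had a median of -0.04 and ran from KPNA5 at -0.13 to IPO4 at 0.23. No member of either list was called or passed the adjusted threshold. At an unadjusted p under 0.05 in the blocked fit, which 2.95% of all genes reached as higher and 2.85% as lower, 2 nucleoporin genes were higher (NUP88 and NUP62) and no karyopherin gene was either.

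BCR and ABL1, the partners of the fusion that HAP1 carries, had mean FPKM of 5.90 and 14 in EV and 6.07 and 15.0 in WT. They do not identify the line, since BCR was at 12.8 to 17.4 and ABL1 at 15.4 to 30.1 in HCT116 EV libraries and gene levels do not show the fusion. Of 17 blood lineage markers, only 5 were expressed highly enough to be tested, and PTPRC, SPI1, GATA1, HBG1 and HBG2 were listed at 0 in all 8 libraries. The blood label of the origin is thus not carried by most of its defining markers in either group. GATA2 (15.8 in EV, 16.8 in WT), RUNX1 (1.90 and 2.09), KIT (1.51 and 1.61) and ITGA2B (6.00 and 6.74) differed by -0.20 to 0.02, so that TAL1 was the only tested marker that fell. The summed FPKM of the 17 was 22.2 to 30.9 in EV and 37.1 to 51.1 in WT. TCF3, which codes for a partner of TAL1 in DNA binding, was at 113 FPKM in EV and 107 in WT. Of 16 markers of colorectal epithelium, the tissue of the other line of the series, 7 were at 0 in all 8 libraries and CDX2 alone was tested (2.72 and 2.79 FPKM). The summed FPKM of the 16 was 3.13 to 5.57 in EV and 3.23 to 5.33 in WT.

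The tested genes of DNA sensing and interferon had a median difference near 0. Of 46 listed, 23 were expressed highly enough to be tested, with a median difference of -0.02, 11 above and 12 below 0. At an unadjusted p under 0.05 in the blocked fit none was higher and 3 were lower, where 2.95% and 2.85% of all genes were. The 3 were MB21D1, HERC5 at -0.53 and BST2 at -0.17. The lowest of the list was MB21D1, the gene of cGAS, with 3.05, 3.42, 2.74 and 4.00 FPKM in EV and 6.16, 3.87, 5.62 and 6.46 in WT (difference -0.59, adjusted p = 1.0 from limma, 0.677 with the block). Only EV replicate 4 reached into the range of WT. ISG15, the highest of the list, was at 0.17. In each library the summed FPKM of the 46 genes was 279 to 366 in EV and 320 to 374 in WT. TMEM173, the gene of STING, was too low to be tested, with means of 0.346 FPKM in EV and 0.376 in WT. Whether these cells can answer DNA in the cytosol through STING was not tested.

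The p53 targets, which rise after DNA damage, had a median of 0.19 over 25 tested genes, 17 above and 8 below 0, with none past an unadjusted p of 0.05 in either fit. This median rested on single libraries. CDKN1A, which codes for the cell cycle inhibitor p21, had 59.6, 61.9, 8.66 and 8.12 FPKM in EV and 72.4, 8.52, 10.3 and 13.3 in WT. It was high in EV replicates 1 and 2 and in WT replicate 1, and low in the other libraries. Without WT replicate 2 the median of the list was 0.08. In the blocked fit without either library numbered 2 it was -0.06, with 3 genes lower at an unadjusted p under 0.05. The share of all genes that reached this in that fit was not counted. Counts from that fit, here and for the lists below, therefore have no background beside them. The list ran from PLK2 at -0.21 to TP53I3 at 0.48. Cell cycle genes had a median of 0.03 over 35 genes, from CCND1 at -0.37 to CCNE2 at 0.20. MCM5 and MCM7 were higher at an unadjusted p under 0.05 in the blocked fit, as 2.95% of all genes were.

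Amino acid response genes are induced through the transcription factor ATF4 when amino acids run short. ASNS, asparagine synthetase, had 131, 143, 44.8 and 48.6 FPKM in EV and 170, 251, 45.1 and 55.3 in WT, high in numbers 1 and 2 of both groups. CTH, an enzyme of cysteine synthesis, was at 26.0, 29.2, 7.57 and 15.1 in EV and 37.4, 52.4, 9.33 and 19.4 in WT. It was lower in EV in all 4 pairs, with a mean difference of -0.49 (adjusted p = 0.481 from limma with the block). Of 33 tested genes of this response, 30 were below 0, against 49.9% of all genes, with a median of -0.10. At an unadjusted p under 0.05 in the blocked fit 5 were lower, where 2.85% of all genes were. Without WT replicate 2 the median was 0.04, and in the blocked fit without pair 2 it was -0.03, with 6 genes lower. ATF5 was the highest of the list at 0.07.

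The BMP pathway held both a gene that rose and a called gene that was lower. Its ligands bind paired type I and type II receptors, which phosphorylate SMAD1, SMAD5 and SMAD9, and these induce the ID genes. Of 30 tested genes the median was -0.05, with 11 above and 19 below 0. Without WT replicate 2 the median was -0.0, and in the blocked fit without pair 2 it was 0.02. In that last fit 4 genes were higher and 2 lower at an unadjusted p under 0.05. Among the ligands BMP7 rose, BMP2 was lower, and BMP4 was at -0.26. The receptors BMPR1A and BMPR2 were at 0.08 and -0.14, and BMPR1A had 15.1 FPKM in EV and 14.4 in WT. SMAD1 was at 0.29 and SMAD5 at -0.22. The target genes did not follow the ligand in one direction: ID1, ID2 and ID3 were at -0.28, -0.20 and 0.00, and MSX2 at 0.49 (adjusted p = 0.421 from limma with the block). NOG, which codes for the BMP antagonist noggin, was at -0.49. In the blocked fit of all 8 libraries, 3 genes of the list were higher and 4 lower at an unadjusted p under 0.05. The shares of all genes were 2.95% and 2.85%. BMP7 alone changed after adjustment.

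Genes of the extracellular matrix and of growth factor response lay below 0 more often than above. In the matrix and adhesion list 32 of 38 tested genes were below 0, against 49.9% of all genes, with a median of -0.13. At an unadjusted p under 0.05 in the blocked fit 7 were lower and 1 higher, where 2.85% and 2.95% of all genes were. LAMB1, a laminin chain gene, was the lowest, with 1.79, 2.45, 1.24 and 1.78 FPKM in EV and 3.45, 6.42, 3.67 and 2.81 in WT, which did not overlap (difference -0.82, adjusted p = 0.399 from limma with the block). VCAN and FN1, the genes of versican and fibronectin, were at -0.74 and -0.48, and THBS2, thrombospondin 2, at 0.76. Without WT replicate 2 the median of the list was -0.07, and in the blocked fit without pair 2 it was -0.06, with 3 genes higher and 7 lower.

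Of the immediate early genes, which growth factors induce within minutes, 23 of 27 tested were below 0, against 49.9% of all genes. Their median was -0.19. EGR1 had 6.21, 5.99, 7.98 and 3.14 FPKM in EV and 9.79, 34.4, 13.3 and 3.39 in WT, so WT replicate 2 alone was far above the rest. The median was -0.06 without that library. In the blocked fit without either library numbered 2 it was -0.14, with 3 genes lower at an unadjusted p under 0.05. One of these, CYR61, a matricellular protein gene, passed the adjusted threshold there (difference -0.92, adjusted p = 0.0138 from limma). CYR61 had 22.2, 44.7, 6.37 and 4.15 FPKM in EV and 43.5, 14.4, 13.2 and 8.42 in WT, so that pair 2 went the other way, and with all 8 libraries its difference was -0.30 (adjusted p = 1.0 from limma). FOSL1, an AP-1 subunit gene, was the highest of the list at 0.29.

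All 13 genes of the mitochondrial genome were below 0, with a median of -0.20 and -0.17 without WT replicate 2. The medians of the same-numbered pairs were -0.177, -0.426, -0.286 and 0.132, so that pair 4 went the other way. The list ran from MT-CO1, a subunit of cytochrome c oxidase, at -0.37 to MT-ND3 at -0.02, and no member passed the adjusted threshold. MT-CO1 had 2250 to 3620 FPKM in EV and 2800 to 5460 in WT, so the groups overlapped. Of 12 tested genes of antigen presentation by MHC class I, 10 were below 0, and the list ran from PSMB8 at -0.49 to NLRC5 at 0.05. Their median was -0.14, -0.04 without WT replicate 2 and 0.01 in the blocked fit without pair 2. In the annexin and S100 list, S100A11 was at -0.45 beside ANXA1, and S100A4 and S100A6 were at 0.40 and 0.30. The median of its 12 tested genes was -0.05, and 0.03 without WT replicate 2.

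Genes of cholesterol and fatty acid synthesis had a median of -0.01 over 33 genes, from STARD4 at -0.33 to TM7SF2 at 0.22. At an unadjusted p under 0.05 in the blocked fit 4 were lower, where 2.85% of all genes were, but 1 without pair 2. Hypoxia and glycolysis genes (26 tested) had a median of -0.04, from ADM at -0.36 to ANKRD37 at 0.50, and heat shock genes (20 tested) 0.04, from HSPA1A at -0.20 to CACYBP at 0.17. The heat shock median was -0.09 without WT replicate 2.

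Genes whose activity often differs between clones of a line gave mixed values. Of 22 tested HOX genes the median was -0.02, from HOXB9 at -0.38 to HOXC6 at 0.36, and it was 0.06 without WT replicate 2. Of 13 tested imprinted genes it was -0.03, from CDKN1C at -0.30 to H19 at 0.48, and it was 0.07 without WT replicate 2. Of 53 clustered protocadherin genes only 5 were tested, with a median of 0.04, and of -0.17 without WT replicate 2. PCDHAC2 was at -0.26 and PCDHGC3 was at 0.60, with 7.85, 5.30, 8.65 and 8.5 FPKM in EV and 4.10, 3.41, 6.54 and 4.67 in WT. PRAME, the only cancer-testis gene of 65 expressed highly enough to be tested, had 4.62, 6.30, 3.25 and 4.99 in EV and 10.5, 12.2, 7.40 and 7.95 in WT. Its groups did not overlap, at a difference of -0.86 (adjusted p = 0.153 from limma with the block). The 11 tested neuronal genes had a median of 0.08, from SOX2 at -0.28 to SYP at 0.24, and a median of -0.01 without WT replicate 2.

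HCT116, a colorectal carcinoma line in which the study also grew empty-vector controls, gave a second setting. Its 7 EV1 and EV2 libraries were compared with 2 WT libraries, since 2 more libraries whose title and genotype label conflict were left out. EV1 and EV2 are titled as separate lines but were fitted as 1 group, so their libraries are not replicates of 1 line. The replicate number was not fitted, and the WT libraries are numbered 1 and 2 only. The comparison is therefore weak. Of 12997 genes tested there, 1 passed an adjusted p under 0.05 in limma (0.00769%). Of the 23 genes called in HAP1, 14 were tested in HCT116, and none of these passed. At an unadjusted p under 0.05, 2 of them did, HOOK1 in the opposite direction to HAP1 and ANXA1 in the same. ANXA1 was at -0.58 (standard error 0.234), with 188 to 342 FPKM in EV and 301 to 382 in WT. GALNT14, at -1.08 in HAP1, was at -1.05 (standard error 0.812), with 0 to 6.96 FPKM in the EV libraries and 4.80 to 4.91 in WT. STXBP2 was well expressed in HCT116, at 47.0 to 65.2 FPKM in EV and 58.7 to 61.2 in WT, and its difference was -0.10 (standard error 0.140). TCEAL9 was at -0.27, GLMP at -0.14 and BMP7 at -0.29, the last at 1.43 to 7.71 FPKM in EV and 4.03 to 5.66 in WT. TAL1 and PDGFRA were not tested, since no library there exceeded 0.191 and 0.0858 FPKM.

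The difference between the effects in HAP1 and HCT116 was tested in 1 fit of 17 libraries, a fit added after seeing the data. Over all 13600 genes 6 passed an adjusted p under 0.05 (0.0441%), and 5 of the 19 called genes in this fit did. The called genes had been picked by the same HAP1 values that enter this test. Their passing was thus favoured in advance and is no separate support. The effect on STXBP2 was higher in HAP1 by 2.47 (standard error 0.235, adjusted p = 2.11e-05 from limma). For TCEAL9 the effects differed by -2.21 (adjusted p = 3.42e-07 from limma). HOOK1, at 1.11 in HAP1 and -0.59 in HCT116, differed by 1.70 (adjusted p = 0.00748 from limma). TAL1 and PDGFRA also passed, but as both are near 0 in HCT116 they could not have fallen there. For BMP7 and GLMP the differences of 2.54 (standard error 0.549) and -1.42 (standard error 0.300) had adjusted p-values of 0.386 and 0.362 from limma, and the test did not separate the lines.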

How the data were processed

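Bulk RNA of 4 EV and 4 WT HAP1 libraries was compared. The authors deposited FPKM, made with FastQC, STAR alignment to GRCh38 and RSEM, with no further normalization. Whether fragments were counted by strand is not given in the sources used here. Gene positions came from GENCODE release 44, which matched 98.0% of 57507 genes. Genes with mean FPKM of at least 1 were fitted as log2(FPKM + 1) in limma 3.58.1 (R 4.3.3, empirical Bayes with a trend, Benjamini-Hochberg adjustment). Other steps used Python 3.11.15 with numpy 2.4.6, pandas 2.3.3 and matplotlib 3.10.9. Exact permutation tests used all 70 arrangements of the 8 libraries. The scripts were tested on simulated data.

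Same-numbered EV and WT libraries were taken as paired, since their deviations from the group means correlated across genes at 0.245 to 0.63 in all 4 pairs, against -0.468 to 0.343 in the 12 other combinations. The number was therefore also fitted as a replicate block. Of the 12 other combinations 4 were above 0.1. EV 1 with WT 2 was at 0.343, EV 2 with WT 1 at 0.333, EV 3 with WT 4 at 0.217 and EV 4 with WT 3 at 0.114. Numbers 1 and 2, and numbers 3 and 4, were thus only partly told apart by this check. The study describes the HAP1 replicates as independent experiments, and the p-values measure the spread between these libraries of 1 EV line and 1 WT line. The depth of the libraries was estimated only relative to each other, and no 2 libraries held identical values.

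Alternatives were a pseudocount of 0.1, no filter, median-ratio scaling or scaling to TPM, limma with no trend, an unmoderated test with unequal variances, all 32 HAP1 libraries in 1 fit, a fold of 1.5, and leaving out each library. Genes named are NUP58, all called genes, genes past the adjusted threshold in either fit, and the members of each list with the largest and smallest difference. ASNS, CTH, CDKN1A, LAMB1, VCAN, FN1, the partners and markers beside TAL1, the BMP receptors, BMP4, NOG, MSX2, SMAD and ID genes, the genes called only with the block, S100A11, S100A6, CYR61, NUP62, MCM5, MCM7 and the neighbours were named after their values were seen. HERC5, BST2 and TMEM173 were also named after their values were seen. The comparison, its 23 lists and the named genes were chosen with earlier results of these data known.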

Additional observations from a re-analysis of the deposited data

Results flagged for a closer look

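In 48 groups of 4 libraries (24 genes in EV and in WT), 5 groups had a library whose gap to the nearest other, divided by the range, was above Dixon's 95% critical value for 4 values, and chance gives about 1 such group in 20. TAL1 had 1.63 FPKM in EV replicate 1, with the other EV libraries at 1.12 to 1.17 (ratio 0.902). EPHA10 had 2.82 FPKM in EV replicate 1, above 1.43 to 1.56 in the others (ratio 0.906), and lost its call without that library. NPW had 2.81 FPKM in WT replicate 1, below 6.53 to 7.29 in the others (ratio 0.83). ENSG00000272764 had 3.71 FPKM in EV replicate 4, above 1.06 to 1.31 in the others (ratio 0.906), and 0.991 in WT replicate 1, where the others were listed at 0 (ratio 1.0).

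The effect of EV in HAP1 minus that in HCT116 passed an adjusted p of 0.05 in limma for 5 genes: -3.12 for TAL1, -2.21 for TCEAL9, 2.47 for STXBP2, -2.10 for PDGFRA and 1.70 for HOOK1. All 5 had been picked by the HAP1 values that enter this test, so their passing was favoured in advance. TAL1 and PDGFRA are near 0 in HCT116 and could not fall there. HOOK1 was at 6.76 to 11.7 FPKM in the 7 HCT116 EV libraries and at 12.4 to 19.5 in the 2 WT libraries, the opposite order to that in HAP1.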

How the results depend on the processing

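No called gene changed direction under any alternative. A pseudocount of 0.1 called 20 genes higher and 21 lower, scaling to TPM 17 lower, and a fold of 1.5 called 27 higher and 33 lower. The unmoderated test called 8 higher and left 2 genes past the adjusted threshold, with adjusted p-values of 0.45 for STXBP2, 0.303 for BMP7 and 1.0 for PDGFRA. limma without a trend gave 10 adjusted genes, and all 32 HAP1 libraries in 1 fit 14, whose spread was estimated from more libraries. The cause of the other shifts was not tested. Leaving out 1 library gave 10 to 19 genes called higher, 9 to 15 lower and 5 to 6 past the adjusted threshold. All 5 adjusted genes stayed past it each time.

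With the replicate block, which pairs libraries by number, 17 genes were called higher, 11 lower and 6 passed the adjusted threshold. Leaving out a pair from this fit, a choice made after seeing the data, gave 19 to 26 genes called higher, 11 to 22 lower and 4 to 11 adjusted: 21 higher without pair 1, 20 higher, 17 lower and 11 adjusted without pair 2, 26 higher without pair 3 and 22 lower without pair 4. The difference of NUP58 ranged from -0.10 to 0.08 when 1 library was left out and turned from -0.02 to 0.04 and 0.01 without EV replicate 1 and 2, to 0.08 and 0.03 without WT replicate 3 and 4, and to 0.02 in the blocked fit without pair 3. With no fragment counts deposited in the table, the counting error of low genes cannot be given.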
